A study of Mus musculus with 36 samples.

Results

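The genes described here encode the protein components of the cytosolic ribosome in mouse CD4 T cells. They were chosen by symbol: Rpl, Rps or Rplp followed by a digit, and Rpsa. Ribosomal protein S6 kinases, symbols holding -ps and symbols that end in L after a number were left out. The rule found 82 of 20817 listed genes, and all 82 passed the filter on low counts that left 11526 genes for testing. By their known place in the ribosome, 31 encode proteins of the small (40S) subunit and 46 proteins of the large (60S) subunit. Of the other 5 genes, 4 are paralogs (Rpl22l1, Rpl7l1, Rpl36al and Rps27rt), and Rps19bp1 matches the rule although it encodes a binding partner of Rps19 and not a ribosomal protein.

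Ribosomal proteins join ribosomal RNA in the nucleolus, where assembly factors build the 40S and 60S subunits that pair to translate mRNA. Their mRNAs are known as TOP mRNAs, because they begin with a run of pyrimidines through which the kinase mTOR and the protein Larp1 control their translation and stability. T cells expand ribosome production when they leave the naive state, and naive CD4 T cells that meet antigen need much of it to grow and divide.

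Naive CD4 T cells (CD44- CD62L+ CD25-) of C57BL/6 mouse spleen were activated with antibodies against CD3 and CD28 and differentiated in culture. The pathogenic form of Th17 cells (Th17p) was made with IL-1b (20 ng/ml), IL-6 (25 ng/ml) and IL-23 (20 ng/ml). The non-pathogenic form (Th17n) was made with IL-6 at 25 ng/ml and TGFb1 at 2 ng/ml, and the induced regulatory form (iTreg) with TGFb1 at 2 ng/ml and no other cytokine. Cultures of each lineage held either vehicle or DFMO at 100 µM until harvest at 68 h. DFMO, difluoromethylornithine, inhibits ornithine decarboxylase, the enzyme that starts polyamine synthesis. Cells sorted as live were sequenced, which gave 6 groups of 3 libraries, 1 from each of the animals 1, 2 and 3, which are labelled WT (wild type) in every group.

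Depth lay between 8307633 and 13986923 estimated counts per library, and the median count of a ribosomal protein gene in a library was 14208, with a lowest value of 62. Markers of other cells were low: summed CD8 T cell markers reached 26.2 CPM at most (counts per library size scaled by TMM factors), B cell markers 23.4 CPM, and myeloid, NK and erythroid or platelet markers 1.43 CPM at most. B cell markers were highest in iTreg cells (13.1 to 23.4 CPM, against 1.13 to 8.53 CPM in Th17p and Th17n cells), with 4 of 4 listed genes found, and their part in the results was not tested. The T cell markers Cd3d, Cd3e, Cd3g and Cd4 summed to between 725 and 1165 CPM, lowest in Th17n cells with DFMO. Foxp3, which defines regulatory T cells, had a mean of 435 CPM in iTreg vehicle libraries against 0.784 CPM in Th17p and 11.4 CPM in Th17n vehicle libraries, and with DFMO it stood at 97.2 CPM in Th17n cells. The listed marker Il2ra did not separate the lineages in this way, with 1158 CPM in iTreg, 1505 CPM in Th17p and 1865 CPM in Th17n vehicle libraries. Il17a, the Th17 cytokine, had means of 412 CPM in Th17p and 214 CPM in Th17n vehicle libraries and 0.0717 CPM in iTreg vehicle libraries, whereas the listed Th17 marker Ccr6 was at 13.0, 42.8 and 62.1 CPM. With DFMO the summed Th17 markers went from a mean of 1974 to 247 CPM in Th17p cells. The part of these shifts in the results was not tested. In bulk RNA, fewer cells of a type and less RNA per cell cannot be told apart, and CPM does not give the amount of a gene's RNA per cell. The TMM factors were 1.07 to 1.09 in iTreg vehicle and 0.957 to 0.969 in iTreg DFMO libraries, and between 0.958 and 1.03 in the other groups.

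The bases around the transcription start were searched for the run of pyrimidines that marks the TOP class. Start sites of RefSeq (build GRCm38.p6) were at hand for 62 of the 82 genes, with 72 start sites in all. The windows below run 5′ to 3′ from 10 bases before to 20 bases after the start, and capitals mark the longest run of C and T. Rps6, Rps27 and Rplp2 are shown as TOP genes, and Rpl22l1 and Rpl7l1 because DFMO moved them in each lineage. Rpl22 is shown with its 2 start sites as the partner of Rpl22l1. Rps12 is shown as a gene called higher in each lineage, on counts described below as uncertain.
Rps6 (chr4:86857348-86857377, - strand): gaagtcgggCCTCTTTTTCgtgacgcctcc
Rps27 (chr3:90213629-90213658, - strand): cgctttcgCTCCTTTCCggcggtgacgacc
Rplp2 (chr7:141447641-141447670, + strand): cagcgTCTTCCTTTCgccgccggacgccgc
Rps12 (chr10:23787190-23787219, - strand): tcatgcggccaccgccggCCTTTTCCCCTg
Rpl22 first start (chr4:152324426-152324455, + strand): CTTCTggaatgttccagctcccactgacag
Rpl22 second start (chr4:152325716-152325745, + strand): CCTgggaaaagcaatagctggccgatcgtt
Rpl22l1 (chr3:28805498-28805527, + strand): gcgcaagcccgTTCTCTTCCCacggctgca
Rpl7l1 (chr17:46782637-46782666, - strand): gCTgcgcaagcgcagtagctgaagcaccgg

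In Rpl22l1 the run is 10 bases long and begins at transcribed base 2, and in Rps6, Rps27 and Rplp2 the run spans the annotated start. The longest run in Rpl7l1 has 2 bases, as it does in Rps3 and Rps3a1. That in the first Rpl22 window has 5. A run of at least 6 C or T bases, read in the direction of the mRNA, lay anywhere in this window at 54.2% of the 72 start sites. Of all 32851 start sites at hand 28.7% held such a run. A run that lies away from the start need not be a TOP run. Genes of ribosome biogenesis held it at 19.1% of 47 start sites. The motif CCGGAAG, the core of ETS-family factor sites, was searched on both strands from 250 bases before to 50 after the start. It lay in 34.7% of the windows of ribosomal protein genes, in 21.3% of those of biogenesis genes and in 8.86% of all windows. These matches describe letters and show no binding. The 82 genes are spread over 19 chromosomes, with 14 of them on chromosome 7.

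Levels were compared between genes by TPM, which divides by transcript length. Rpl41, which encodes a very short peptide of the 60S subunit, was highest with a mean of 10117 TPM over the 18 libraries, followed by Rplp1 (8172 TPM), Rpl39 (7279 TPM), Rps27 (6621 TPM) and Rps4x (6321 TPM). Over libraries Rpl41 ran from 9107 to 10941 TPM and Rplp1 reached 9454 TPM, so the ranges of these neighbours overlapped. The lowest were Rpl10 (48.9 TPM), Rps19bp1 (55.6 TPM), Rps29 (58.0 TPM), Rpl7l1 (95.4 TPM) and Rpl10a (99.2 TPM). Some low levels belong to genes with listed copies of like symbol. Rpl10 held 5922 estimated counts over all libraries, while the row Rpl10-ps3 held 462377, and Rps12 held 79590 against 372347 for Rps12-ps3. Of the estimates for these 82 genes per run, 72.7% are not whole numbers, against 12.2% over all genes, so their reads were often divided between features. For Rpl10, Rpl7l1, Rplp2, Rps12, Rps25, Rps27, Rps27rt and Rps29, among others, no estimate is whole, and for Rpl22l1 94.4% are not, while each estimate of Rpl22 is whole. The levels of the former are uncertain to the extent that reads of copies were assigned to them.

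**Figure D1:**
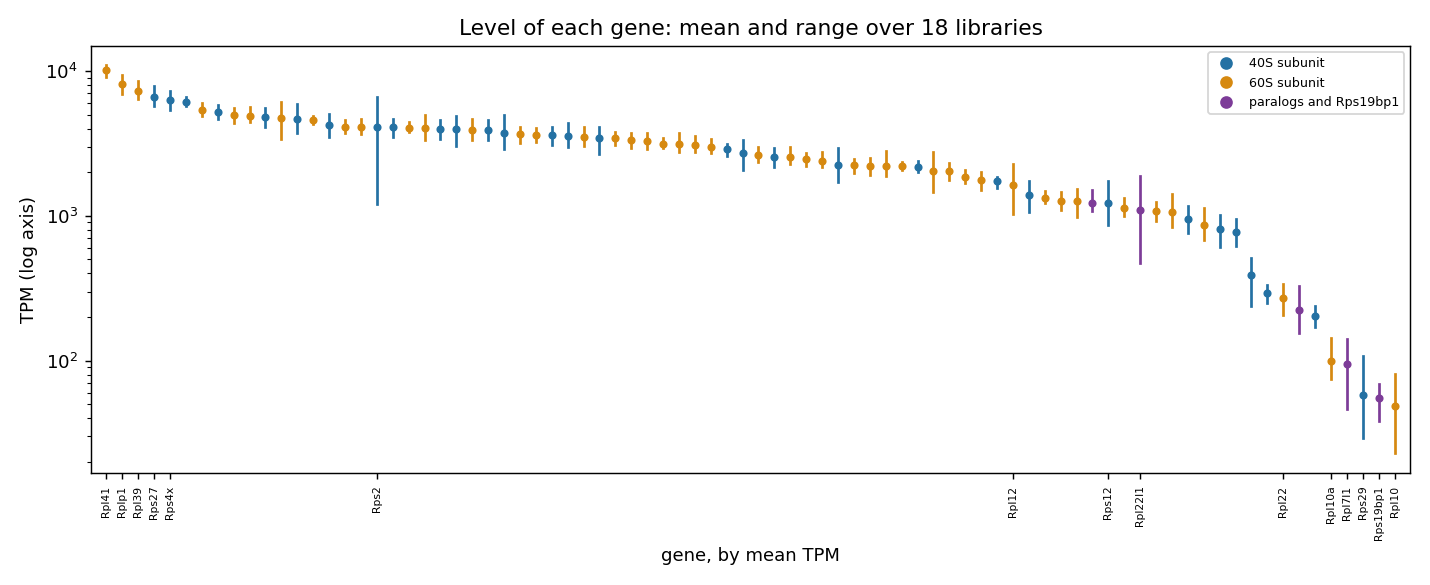
Mean TPM of each ribosomal protein gene over 18 libraries (points, log axis) with the lowest and highest library (lines), ordered by mean and coloured by subunit, with the genes at both ends and 5 others named. Rpl41 stands highest at a mean of 10117 TPM, Rpl10 lowest at 48.9 TPM, and Rps2 and Rpl22l1 have long ranges.

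Rps2, which encodes a protein at the mRNA entry of the 40S subunit, scattered between animals of a group. Its values in Th17p cells were 1082, 3017 and 2293 CPM in vehicle and 4673, 4039.8 and 5632 CPM with DFMO (animals 1, 2 and 3, the order used throughout). In iTreg cells it stood at 2897, 3244 and 3859 CPM in vehicle and 3673, 1320.1 and 5302 CPM with DFMO. The values from the 2 sequencing runs of a library lay close together beside this scatter. Sums over the 40S subunit are therefore also given without Rps2, a choice made after its values were seen.

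Ribosomal protein genes took up between 11.6% and 16.7% of the estimated counts of a library. In iTreg cells the share rose from 13.0, 13.7 and 12.9% in vehicle to 16.7, 15.2 and 16.1% with DFMO, and the groups did not overlap (means 13.2% ± 0.40 and 16.0% ± 0.73, SD, n = 3, exact permutation test, p = 0.1). In Th17p cells it was 13.0, 13.3 and 11.6% and 15.3, 13.4 and 14.1%, without overlap (12.6% ± 0.92 and 14.3% ± 0.95, SD, n = 3, exact p = 0.1). In Th17n cells it was 14.8, 15.0 and 13.4% and 14.5, 13.0 and 13.8%, and these groups overlapped (14.4% ± 0.90 and 13.8% ± 0.72, SD, n = 3, exact p = 0.4). The 3 p-values are two-sided, 0.1 is the smallest that 3 against 3 libraries allow, and over the 6 share comparisons they adjust to 0.2, 0.2 and 0.48 (Benjamini-Hochberg). Swapping the treatment labels within each animal and lineage, over all 9 pairs, gave an exact p of 0.0703 for the share, which was higher with DFMO in 7 of 9 pairs.

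Within the ribosome the balance of the subunits moved the same way in each lineage. The summed counts of 60S genes divided by those of 40S genes fell with DFMO in 9 of 9 pairs of animal and lineage, by 0.126 ± 0.048 (mean and SD of 9 pairs, exact permutation test by swapping labels within pairs, p = 0.00391, the smallest that 512 swaps allow, 0.00781 when adjusted over share and ratio). The pairs come from 3 animals, and this test was chosen after the ratio had been seen. Without Rps2 the mean fall was 0.121 ± 0.016 (SD, 9 pairs). In Th17p cells the ratio was 1.76, 1.76 and 1.77 in vehicle and 1.65, 1.64 and 1.65 with DFMO. In Th17n cells it was 1.76, 1.76 and 1.76 and 1.63, 1.63 and 1.62, and in iTreg cells 1.69, 1.73 and 1.74 and 1.60, 1.60 and 1.62. No vehicle library overlapped a DFMO library, whatever the lineage, although the 3 lineages differed in whether the share of ribosomal protein genes rose. Each lineage alone gave an exact p of 0.1, the smallest possible. Adding the -ps rows kept the mean fall at 0.124, and sums of TPM gave a fall of 0.102, each in 9 of 9 pairs. The ratio needs no scaling between libraries, and it counts RNA of the genes, not subunits.

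**Figure D2:**
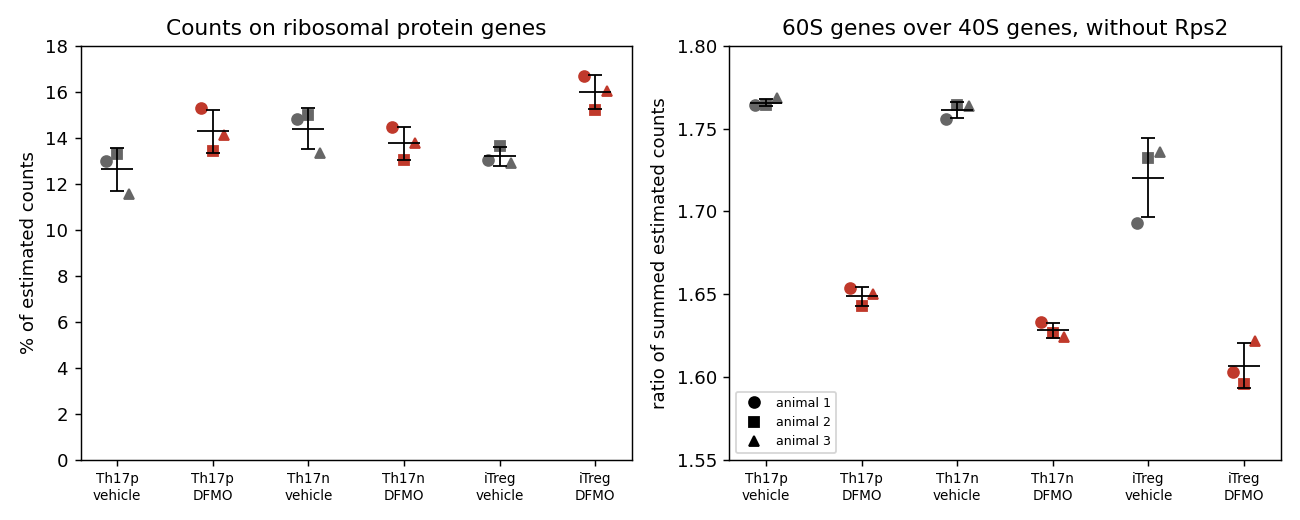
Left, percent of estimated counts on the 82 ribosomal protein genes per library. Right, summed counts of 60S genes divided by those of 40S genes without Rps2, on an axis that does not begin at 0. Symbols are animals, grey is vehicle, red is DFMO, and bars show mean and SD of 3 libraries. On the right all 9 DFMO libraries lie below all 9 vehicle libraries, while on the left Th17n groups overlap.

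In iTreg cells DFMO raised nearly the whole set. In the edgeR fit 73 of 82 genes were higher and 1 was lower (adjusted p under 0.05), where 18.3% of all genes tested were higher and 19.2% lower. The median log2 fold change of the 82 genes was 0.45, against -0.04 over all genes. The vehicle and DFMO libraries overlapped in Rpl10a, Rps2, Rpl24 and Rps19bp1. Of 31 genes of the 40S subunit 30 rose, and of 46 genes of the 60S subunit 41 rose. The 14 genes of the 40S head all rose, as did the 9 around the exit of the nascent peptide tunnel. Without scaling factors the median of all genes shifted by -0.16 and 54 members were higher and 1 lower, with a median of 0.29 for the members against -0.21 for all genes.

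Large rises in iTreg cells came from both subunits. Rps12, a protein of the 40S head, went from 341, 325 and 311 CPM to 685, 547 and 592 CPM, a log2 fold change of 0.90 (SE 0.15, adjusted p = 0.00018). Rplp2, one of the acidic stalk proteins that recruit translation factors to the 60S subunit, went from 1010, 1004 and 916 CPM to 1876, 1568 and 1744 CPM, or 0.82 (SE 0.14, adjusted p = 0.00015). In both genes every DFMO library lay above every vehicle library. Rps12 has the uncertain assignment named above. The row Rps12-ps3 went from 1656.5, 1608 and 1492 CPM to 2787, 2581 and 2725 CPM. The stalk partners Rplp1 and Rplp0 rose by 0.55 and 0.45 on the log2 scale. Rpl5 and Rpl11, which carry the 5S RNA into the 60S subunit and can bind Mdm2 when free, rose by 0.38 and 0.43. Rps6, the 40S protein that S6 kinases phosphorylate, rose from 2585, 2694 and 2509 CPM to 3319.7, 3239 and 3109 CPM, or 0.31 (SE 0.08, adjusted p = 0.0034), a call lost without scaling factors (adjusted p = 0.0918) and on TPM (0.0841). Rpsa, the laminin receptor and 40S protein, rose from 5109, 5554 and 5341 CPM to 7369, 7733 and 7715 CPM, or 0.51 (SE 0.06, adjusted p = 1.1e-06).

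The 8 genes without a call in iTreg cells were Rpl10a, Rps2, Rpl24, Rpl36al, Rpl13a, Rps19bp1, Rpl36a and Rpl12, with log2 fold changes from -0.05 (Rpl10a) to 0.40 (Rpl12). Rpl24, which forms a bridge between the subunits, stood at 1031, 1068 and 981 CPM in vehicle and 1168, 1059 and 1059 CPM with DFMO, and the groups overlapped. Rpl10, with the uncertain assignment named above, was called at 0.92 (SE 0.33, adjusted p = 0.0405) from 26.4, 14.1 and 22.7 CPM and 51.9, 36.4 and 31.4 CPM, and the call was lost without animal 1 (adjusted p = 0.0827) or animal 2 (adjusted p = 0.218), without scaling factors (0.0822), without the filter (0.0907) and on TPM (0.112). The row Rpl10-ps3 rose by 0.65 on the log2 scale.

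In Th17p cells DFMO raised fewer of these genes past the test, and the rise varied between animals. With DFMO 27 of the 82 genes were higher and 1 was lower, where 15.9% of all genes were higher and 17.1% lower, and the median log2 fold change was 0.17 against 0 over all genes. Of the 40S genes 12 of 31 rose and of the 60S genes 13 of 46, and the 40S median (0.27) stood above the 60S median (0.15). The median difference over the 77 subunit genes was 0.26 in animal 1, -0.04 in animal 2 and 0.36 in animal 3, so animal 2 did not share the rise. The vehicle library of animal 3 had the lowest share of these genes in the series. Without that library 13 genes were higher and 3 lower, without animal 1 altogether 10 were higher, and without animal 3 altogether 7 were higher. On log2(TPM + 1) 54 were higher and 2 lower with a median of 0.19, against 0.02 over all genes. In iTreg cells that fit gave 57 higher and 1 lower with a median of 0.23, against -0.19 over all genes.

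Among the genes that rose in Th17p cells, Rpsa went from 5294, 4967 and 4876 CPM to 7389.7, 6838 and 7004 CPM, a log2 fold change of 0.49 (SE 0.06, adjusted p = 3.1e-06), with the groups apart. Rps12 went from 361, 363 and 276 CPM to 615, 422 and 532 CPM, or 0.65 (SE 0.15, adjusted p = 0.00318), and the call was lost without animal 1 (adjusted p = 0.058). Its read assignment is uncertain, and the row Rps12-ps3 went from 1670, 1619 and 1369 CPM to 2416.5, 2150 and 2103 CPM. The stalk genes Rplp0, Rplp1 and Rplp2 also rose by 0.24, 0.33 and 0.50 on the log2 scale. Rpl5 rose by 0.22, while Rpl11 had 0.17 (adjusted p = 0.125). The calls of Rplp0, Rplp1 and Rpl5 were lost without animal 1 (adjusted p = 0.0876, 0.0814 and 0.128), animal 3 (0.108, 0.0869 and 0.165) or its vehicle library (0.0692, 0.0917 and 0.0809), and that of Rplp2 without animal 1 (0.0677). Rps6 did not pass the test at 2936, 2955 and 2554 CPM in vehicle and 3089, 2661 and 2779.5 CPM with DFMO (0.01, SE 0.08, adjusted p = 0.909), and its sign turned without scaling factors and in DESeq2. Others that missed the threshold in Th17p cells were Rps14 (0.13), Rps19 (0.24), a gene mutated in Diamond-Blackfan anaemia, Rps27 (0.14), Rps28 (0.08), Rpl3 (0.07), Rpl38 (0.18), Rpl39 (0.07) and Rpl41 (0.19). With a block for the animal Rps19 was called (adjusted p = 0.0235), without the filter (0.043), without animal 2 (0.043) and on TPM (0.00049), and Rps14, Rpl38 and Rpl41 on TPM (0.0234, 0.0246 and 0.00044), as was Rpl11 (0.00202).

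In Th17n cells DFMO raised some of these genes and lowered others, at shares no larger than over all genes. With DFMO 9 genes were higher and 15 lower, both smaller as shares than the 22.8% of all genes that were higher and the 23.7% that were lower, and the median log2 fold change was -0.05 against -0.02 over all genes. Of the 40S genes 7 were higher and 3 lower, and of the 60S genes 0 were higher and 11 lower in edgeR. The difference between these subunit counts was not tested. On TPM, where the median of all genes shifted by 0.06, 19 of the 82 genes were higher and 17 lower and the median of the 82 was 0.04. Without animal 2 the number of lower genes was 3, and without animals 1 or 3 the number of higher genes was 4 or 3. The median difference over subunit genes was -0.03, -0.26 and 0.11 in the 3 animals.

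Among the 40S genes that rose in Th17n cells were Rps12, Rps23, Rps25 and Rps29. Rps12 had 338, 387 and 289 CPM and 480.2, 369 and 472 CPM, or 0.38 (SE 0.15, adjusted p = 0.0452), with overlapping groups. Its read assignment is uncertain. The row Rps12-ps3 had 1938, 1889 and 1629 CPM and 2185, 1975 and 2095.5 CPM without a call. The 40S genes that fell were Rps3, Rps6 and Rps18. Rps6 went from 3482, 3428 and 2945 CPM to 2885, 2550 and 2659.5 CPM, or -0.28 (SE 0.08, adjusted p = 0.00527), with the groups apart, a call lost without animal 2 (adjusted p = 0.151). Among the 60S genes that fell were Rpl3, Rpl4, Rpl7, Rpl9, Rpl12, Rpl13a, Rpl17, Rpl18, Rpl24 and Rpl36a. Rpl24 went from 1628, 1611 and 1319.8 CPM to 1235, 1015 and 1049 CPM, or -0.47 (SE 0.10, adjusted p = 0.00063). Rpl3, which lines the site of peptide bond formation, went from 5692, 5707 and 5253 CPM to 4697, 4416 and 4614 CPM, or -0.28 (SE 0.07, adjusted p = 0.00246). In both, each DFMO library lay below each vehicle library, and the call of Rpl3 was lost without animal 2 (adjusted p = 0.0658). Rpl12, at the base of the stalk, went from 1034, 944 and 1061 CPM to 522, 806 and 584 CPM, or -0.67 (SE 0.23, adjusted p = 0.0293), a call lost without animal 3 (adjusted p = 0.251) and without the filter (adjusted p = 0.0507). Rpl36a went from 514, 488 and 422 CPM to 395, 331 and 348 CPM, or -0.41 (SE 0.11, adjusted p = 0.00538), a call lost without animal 2 (adjusted p = 0.112). The stalk genes Rplp0 (0.10), Rplp1 (-0.02) and Rplp2 (0.25) and Rpsa (0.12) did not pass the test. With a block for the animal Rplp2 was called (adjusted p = 0.0435), Rpsa without scaling factors (0.0396), and Rplp0, Rplp2 and Rpsa on TPM (0.00182, 0.00037 and 0.00453).

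**Figure D3:**
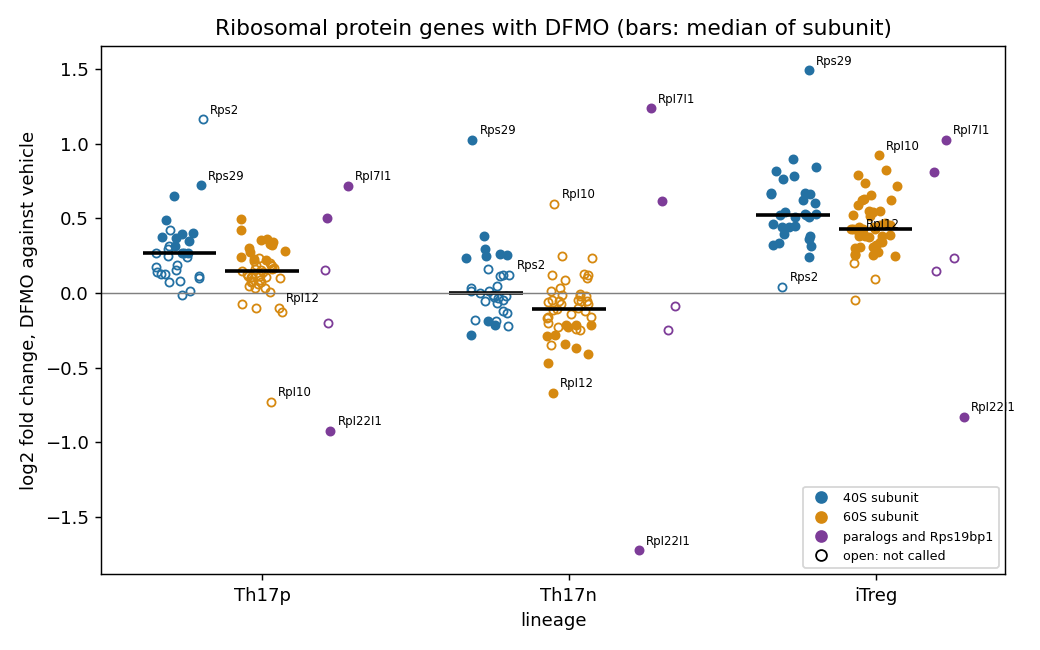
Log2 fold change of DFMO against vehicle in each lineage for every ribosomal protein gene, by subunit. Filled points passed the edgeR test, open points did not, and bars mark the median of each subunit. In each lineage the 40S median lies above the 60S median (0.27 and 0.15 in Th17p, 0.00 and -0.11 in Th17n, 0.53 and 0.43 in iTreg). Rpl22l1 is the lowest gene in each lineage. Rpl7l1 is the highest in Th17n cells (1.24), while other genes lie above it in Th17p and iTreg cells (up to 1.17 and 1.49).

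Rpl22l1 fell in each lineage and was the 1 gene called lower in Th17p and iTreg cells. It encodes a paralog of Rpl22 that can take the place of Rpl22 in the 60S subunit, and both are known for roles in T cell development. In Th17p cells Rpl22l1 was at 446, 535 and 356 CPM in vehicle and 272, 217 and 216 CPM with DFMO, a log2 fold change of -0.92 (SE 0.16, adjusted p = 0.00034). The fall in Th17n cells was from 567, 625 and 458 CPM to 183, 176 and 141 CPM, or -1.72 (SE 0.16, adjusted p = 3.5e-07). In iTreg cells it went from 359.8, 419.7 and 368 CPM to 242, 219.6 and 185 CPM, or -0.83 (SE 0.16, adjusted p = 0.00065). Every DFMO library lay below every vehicle library of its lineage, and the 3 calls held under each alternative that was run. Rpl22 itself went from 514, 534 and 419 CPM to 724, 561 and 596 CPM in Th17p cells (0.36, SE 0.12, adjusted p = 0.0222), a call lost without animal 1 (adjusted p = 0.123), animal 3 (0.114) or its vehicle library (0.127). In iTreg cells Rpl22 rose from 528, 523 and 476 CPM to 865, 729.5 and 772 CPM (0.63, SE 0.12, adjusted p = 0.00025). In Th17n cells, where Rpl22l1 fell most, Rpl22 had 683, 674 and 549 CPM and 706, 553 and 624 CPM with overlapping groups (-0.02, SE 0.12, adjusted p = 0.914).

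Rpl7l1 rose in each lineage. It encodes a relative of Rpl7 found on precursors of the 60S subunit. In Th17p cells Rpl7l1 went from 174, 198 and 202 CPM to 322, 312 and 310.4 CPM, a log2 fold change of 0.72 (SE 0.09, adjusted p = 3e-06). The step in Th17n cells was from 138, 142 and 136 CPM to 355, 302 and 325 CPM, or 1.24 (SE 0.09, adjusted p = 8.1e-10), and in iTreg cells from 215, 174 and 175 CPM to 389, 404 and 353 CPM, or 1.03 (SE 0.09, adjusted p = 2e-08). The groups stood apart in each lineage, and these 3 calls also held under each alternative run. Rpl7 itself had log2 fold changes of 0.12 in Th17p cells (adjusted p = 0.236), -0.21 in Th17n cells and 0.38 in iTreg cells.

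Rps29 (chr12:69157722-69159186, - strand), which encodes a zinc-binding protein of the 40S head, also rose in each lineage, from a low level. Its values were 7.27, 7.21 and 6.15 CPM in vehicle and 13.2, 9.74 and 11.2 CPM with DFMO in Th17p cells (0.72, SE 0.22, adjusted p = 0.0134), a call lost without animal 1 (adjusted p = 0.0884), animal 3 (0.0968) or the vehicle library of animal 3 (0.0607). In Th17n cells they were 7.69, 9.40 and 5.87 CPM and 14.8, 14.7 and 17.1 CPM (1.03, SE 0.21, adjusted p = 0.00048), and in iTreg cells 11.3, 7.08 and 7.25 CPM and 25.5, 23.7 and 22.8 CPM (1.49, SE 0.21, adjusted p = 1.1e-05). The groups did not overlap in any lineage, but no estimate of Rps29 is whole, so these levels carry the uncertain assignment named above. The other paralogs and partners did less: Rpl36al had -0.20, -0.25 and 0.15 in Th17p, Th17n and iTreg cells without a call, though several alternatives called it lower in Th17p or Th17n cells, and turned sign in iTreg cells without scaling factors and on TPM. Rps27rt, a processed copy of Rps27, rose in iTreg cells (0.81, SE 0.25, adjusted p = 0.0193). Rps19bp1 rose in Th17p (0.50, SE 0.12, adjusted p = 0.00224, or 0.0541 without animal 3) and Th17n cells (0.61, SE 0.12, adjusted p = 0.0002) and had 0.23 in iTreg cells without a call. Rps27l, a paralog outside the rule and a known p53 target, rose in Th17p, Th17n and iTreg cells by 0.37, 0.78 and 0.49.

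**Figure D4:**
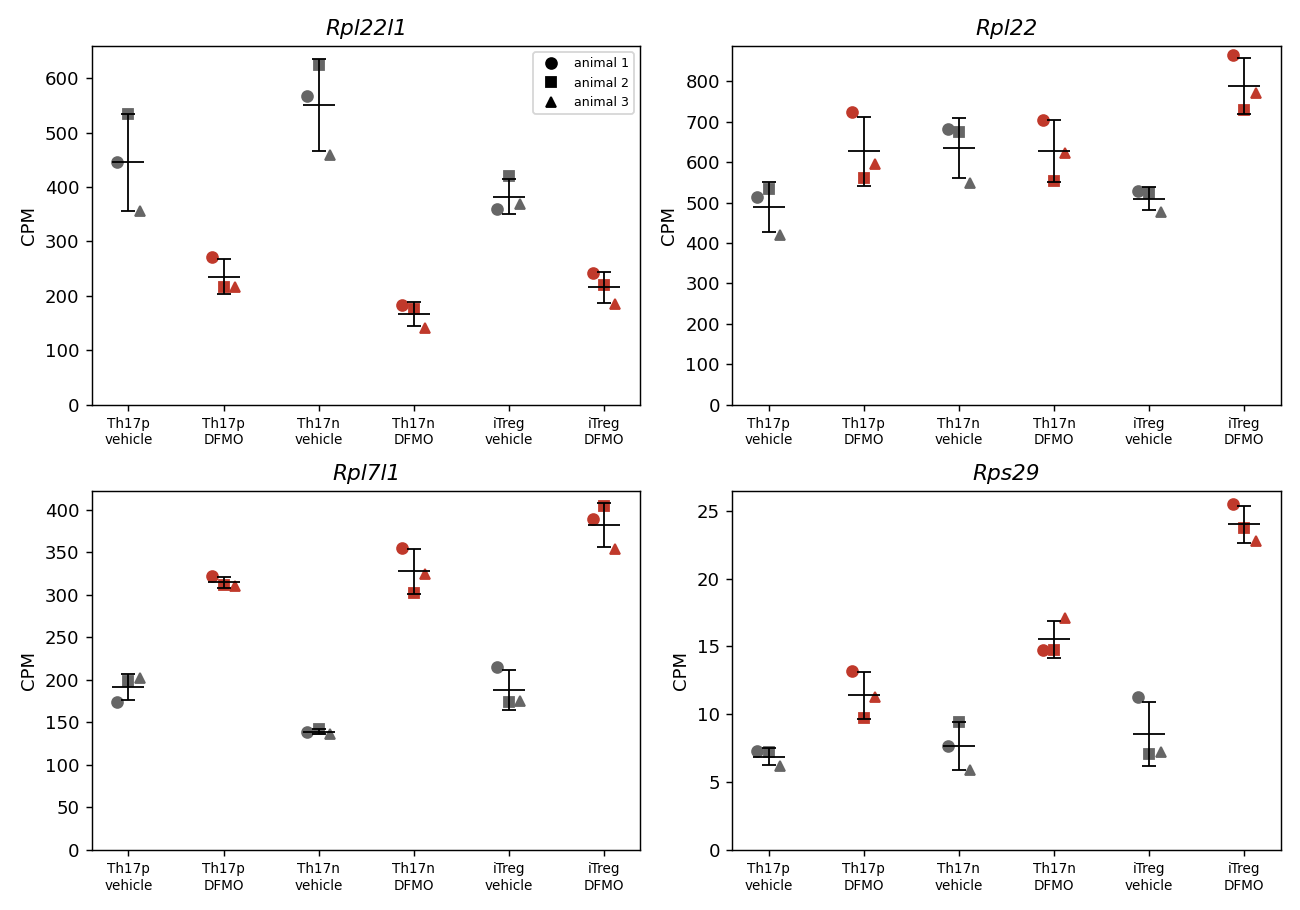
CPM per library of Rpl22l1, Rpl22, Rpl7l1 and Rps29 in the 6 groups (symbols are animals, grey vehicle, red DFMO, bars mean and SD of 3). Rpl22l1 is lower and Rpl7l1 and Rps29 are higher in every DFMO library than in the vehicle libraries of the lineage, while Rpl22 overlaps in Th17n cells.

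The difference between DFMO effects was tested with interaction terms. The log2 fold change with DFMO was called higher in iTreg than in Th17n cells in 60 genes and lower in 0. Of all genes 6.66% were called higher and 5.45% lower. The median difference of the 82 genes was 0.54 on the log2 scale. The median over subunit genes was 0.57, 0.63 and 0.42 in the 3 animals. Leaving out animal 1 lowered the number to 24, and leaving out animal 2 to 2, although the direction stayed the same. Without scaling factors, where the median of all genes shifted by -0.17, it was 42 higher and 2 lower. On log2(TPM + 1) the median difference of the 82 genes was 0.22, against -0.25 over all genes. Rps7 (0.69, SE 0.13, adjusted p = 0.00168) and Rps27 (0.79, SE 0.18, adjusted p = 0.00872) were among the larger called differences, and both calls were lost without animal 2 (adjusted p = 0.0629 and 0.105). Rpl12 had 1.07 (SE 0.32, adjusted p = 0.0487), lost under most alternatives, with adjusted p values from 0.0591 to 0.225 where it was lost. Rpl22l1 had 0.90 (SE 0.22, adjusted p = 0.0161), with the larger fall in Th17n cells, a call lost without animal 1 (adjusted p = 0.22) or animal 2 (adjusted p = 0.111).

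Between Th17n and Th17p cells 1 gene had a higher and 4 a lower DFMO effect in Th17n (2.63% and 2.35% of all genes), with a median difference of -0.27. The 4 lower were Rpl13a (-0.40, SE 0.12, adjusted p = 0.0467), Rpl9 (-0.37, SE 0.10, adjusted p = 0.0408), Rpsa (-0.36, SE 0.08, adjusted p = 0.0144) and Rpl3 (-0.35, SE 0.10, adjusted p = 0.0436), and the higher was Rpl7l1 (0.52, SE 0.12, adjusted p = 0.0181). With the animal as a block 13 were lower and 1 higher, while leaving out any animal left 0 or 1 lower and 0 higher, and each of these 5 calls was lost without each animal (adjusted p from 0.0532 to 0.333). On TPM 18 were lower and 1 higher, and without the Th17p vehicle library of animal 3 there were 1 lower and 0 higher. The difference for Rpl22l1 was -0.80 (SE 0.22, adjusted p = 0.0507). Between iTreg and Th17p cells 2 genes had a higher effect in iTreg and 0 a lower, with a median difference of 0.27. Both counts are smaller as shares than the 3.52% and 3.32% of all genes. Rpl10 (1.65, SE 0.47, adjusted p = 0.0481), with the uncertain assignment named above, was among the 2. The row Rpl10-ps3 went from 2326, 2320 and 2128 CPM to 3078, 2636 and 2802 CPM with DFMO in Th17p cells. In iTreg cells this row went from 2053, 1925.5 and 1817 CPM to 3049, 3072 and 2962 CPM. The block gave 21 higher, and without scaling factors, where the median of all genes shifted by -0.12, there were 0. On log2(TPM + 1) the median difference was 0.03, against -0.20 over all genes. The Rpl10 call was lost without animal 1 or animal 2 (adjusted p = 0.236 and 0.267), without scaling factors (0.06), without the filter (0.101), with the compared groups alone (0.0651) and on TPM (0.0745).

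In vehicle the lineages also differed. Th17n cells had more of 29 genes than Th17p cells and less of 1 (9.47% and 10.5% of all genes), with a median log2 difference of 0.24 that was 0.25, 0.22 and 0.26 in the 3 animals. On log2(TPM + 1) the median of the 82 genes was 0.11, against -0.10 over all genes. Rpl7a went from 1383, 1311 and 1212 CPM in Th17p to 1794, 1717 and 1531 CPM in Th17n cells (0.37, SE 0.08, adjusted p = 0.00134). Rpl22 (0.38, SE 0.12, adjusted p = 0.0254), Rpl24 (0.36, SE 0.10, adjusted p = 0.0129) and Rps20 (0.36, SE 0.12, adjusted p = 0.0353) were also higher, while Rpl7l1 was lower (-0.46, SE 0.09, adjusted p = 0.00073). Of these calls Rpl7l1 held without each animal in turn, Rpl22 was lost without each (adjusted p from 0.067 to 0.108), Rpl24 and Rps20 without animal 1 (0.0521 and 0.0834) or animal 2 (0.11 and 0.24), and Rpl7a without animal 2 (0.0544). The block gave 49 higher. Without scaling factors 13 were higher, without the Th17p vehicle library of animal 3 it was 6, and without animals 1, 2 or 3 it was 8, 1 or 10.

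iTreg cells had less of 45 genes than Th17n cells and more of 1 (18.9% and 18.4% of all genes), with a median of -0.28. Rpl24 stood at 1628, 1611 and 1319.8 CPM in Th17n and 1031, 1068 and 981 CPM in iTreg cells (-0.57, SE 0.10, adjusted p = 0.00014), without overlap. Rpl39, which lines the nascent peptide tunnel, had -0.44 (SE 0.13, adjusted p = 0.0105), Rps27 had -0.40 (SE 0.13, adjusted p = 0.0194) and Rpl22l1 -0.52 (SE 0.16, adjusted p = 0.0153), and these 3 calls were lost without animal 1 (adjusted p = 0.0522, 0.0771 and 0.194) or animal 2 (0.103, 0.114 and 0.0946), while Rpl7l1 was higher (0.43, SE 0.09, adjusted p = 0.00053). Without scaling factors the median of all genes shifted by 0.15 and 15 were lower and 2 higher. On log2(TPM + 1) the median of the 82 genes was -0.09, against 0.15 over all genes. Without animal 1 there were 17 lower and without animal 2 there were 14. iTreg and Th17p cells differed in few of these genes: 0 were higher and 2 lower in iTreg (14.5% and 15.7% of all genes), with a median of -0.03. The 2 were Rpl10 (-0.99, SE 0.33, adjusted p = 0.0346) and Rpl36al (-0.30, SE 0.10, adjusted p = 0.0362), and without animals 1 or 2 neither was called. The Rpl10 call, with the uncertain assignment named above, was also lost on TPM (adjusted p = 0.0573), without the filter (0.0865) and with the compared groups alone (0.0535). Without scaling factors 1 gene was higher and 0 lower, and on TPM 3 were higher and 2 lower, of which 1 of the lower was shared with edgeR. The vehicle groups serve in several of these comparisons, so the lists are not independent of each other or of the DFMO comparisons.

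Genes around the ribosome were described by the same counts. Of 43 tested genes of ribosome biogenesis, DFMO raised 33, 37 and 32 in Th17p, Th17n and iTreg cells and lowered 1 in each, with medians of 0.54, 0.94 and 0.59. These counts stand beside 15.9%, 22.8% and 18.3% of all genes higher, and over the alternatives 30 to 34, 33 to 37 and 25 to 33 genes rose. Nop56, a scaffold of the box C/D particles that methylate ribosomal RNA, had 0.55, 1.33 and 0.59. Rrp12, which exports precursor subunits, had 1.01, 1.02 and 1.34, and Dkc1, the pseudouridine synthase, 0.77, 1.35 and 1.20, each called in each lineage. Ddx10 fell in each lineage (-0.30, -0.24 and -0.25), but several alternatives called 0 genes of the list lower. Of 7 chaperones and importers of ribosomal proteins 4, 4 and 5 rose. Tsr2, the chaperone of Rps26, had 2.05, 2.19 and 1.57, and Grwd1, the chaperone of Rpl3, 0.90, 1.79 and 1.15. Their clients moved less: Rps26 had 0.13, -0.05 and 0.40 (called in iTreg cells), and Rpl3 0.07, -0.28 and 0.26 (called in Th17n and iTreg cells). The iTreg call of Rpl3 was lost without scaling factors (adjusted p = 0.248), on TPM (0.62) and without animal 3 (0.0731). The difference between chaperone and client was not tested.

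Of 16 other TOP mRNAs, which encode mainly translation factors, DFMO raised 8, 5 and 14 in Th17p, Th17n and iTreg cells and lowered 0, 3 and 0, with medians of 0.25, 0.09 and 0.47. Beside these and the counts that follow stand 15.9%, 22.8% and 18.3% of all genes higher and 17.1%, 23.7% and 19.2% lower in Th17p, Th17n and iTreg cells. The 3 lower TOP mRNAs in Th17n cells became 1, 0 and 1 without animals 1, 2 and 3 and 1 on TPM. Eef1a1, the elongation factor that brings tRNA to the ribosome, had 0.23, -0.08 and 0.89, called in Th17p and iTreg cells. Eef2 fell in Th17n cells (-0.20) and rose in iTreg cells (0.28). Gnb2l1 (Rack1 of the 40S head), which falls outside the rule by its symbol, had 0.26, 0.00 and 0.40, called in Th17p and iTreg cells. Fau, which encodes a 40S protein fused to a ubiquitin-like one, had -0.15, -0.26 and 0.19 without a call. Of 76 mitochondrial ribosomal protein genes 25, 35 and 31 rose and 2, 8 and 5 fell, with medians of 0.17, 0.20 and 0.15. In iTreg cells these counts were 16 higher and 14 lower without scaling factors and 15 higher and 18 lower on TPM. Without animal 1 or animal 3, 15 rose in Th17p cells, and without animal 2, 16 rose in iTreg cells. The 8 that fell in Th17n cells became 5, 3 and 3 without animals 1, 2 and 3 and 3 on TPM, and the 5 in iTreg cells became 2 without any 1 animal. Among 18 regulators of the MYC and mTOR pathways 5, 11 and 5 rose and 1, 2 and 2 fell. Eif4ebp1, which restrains cap-dependent translation, fell in each lineage (-1.02, -1.28 and -0.89). Larp1, which binds TOP mRNAs, rose in Th17n cells (0.42, SE 0.11, adjusted p = 0.00265) and had 0.07 and -0.08 in Th17p and iTreg cells without a call. Of the 4 genes of hypusination, the polyamine-dependent change that activates eIF5A, 3 rose in each lineage, and Eif5a had 0.32, 0.43 and 0.90. Of 11 genes of ribosome rescue and hibernation 4, 5 and 3 rose and 0, 0 and 1 fell.

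**Figure D5:**
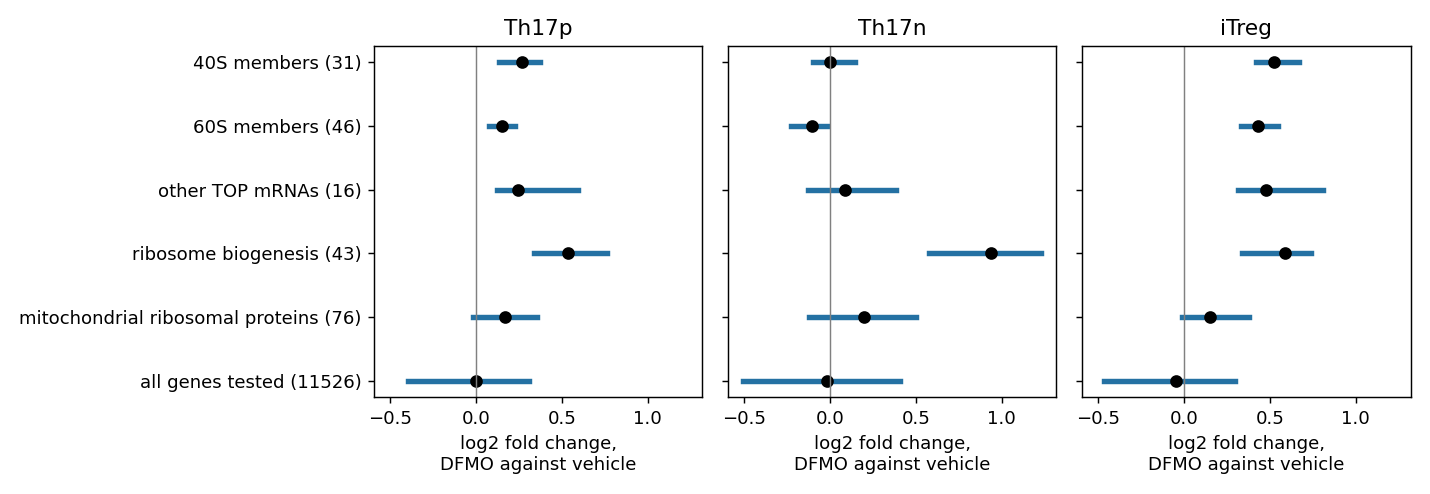
Median (point) and quartiles (bar) of the log2 fold changes with DFMO for gene groups, with the number tested, in each lineage. Ribosome biogenesis lies at 0.54, 0.94 and 0.59 in Th17p, Th17n and iTreg cells, while 60S genes lie at 0.15, -0.11 and 0.43.

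Over the 18 libraries the genes whose log2 CPM followed the mean of the subunit genes most closely included Naca (Pearson r 0.92), Rps12-ps3 (0.90), Mrps16 (0.90) and Serf2 (0.89), given as a description across libraries that share animals and depth. Within the set Rpl35a followed the others most closely (r 0.99). The least alike were Rpl22l1 (r -0.28), Rps2 (0.16) and Rpl10 (0.19).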

How the data were processed

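RNA of 18 libraries was sequenced full-length and paired-end in 2 runs each. Per the submitters' processing notes, reads were aligned to GRCm38.p3 with Bowtie2 and quantified with RSEM; no versions were at hand. The deposited tables hold RSEM expected counts and TPM per gene and run, both from the authors. Estimated counts of the 2 runs were summed per library and rounded, and TPM was averaged.

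Groups came from the sample labels. All 18 libraries entered 1 edgeR (4.0.16, R 4.3.3) quasi-likelihood fit with TMM factors, after the default filter by expression, with 6 group means and Benjamini-Hochberg adjustment over 11526 genes; called means an adjusted p under 0.05. log2 fold changes with their SE come from this fit, and CPM from TMM-scaled library sizes. Shares and ratios were compared with two-sided exact permutation tests. The fit was tested on simulated data with the same spread for every gene and no effect of the animal. That test does not cover changes as small as most of those here, or pairing by animal. Alternatives were DESeq2 (1.42.0), limma (3.58.1) on log2(TPM + 1) and log2(TPM + 0.1), no scaling, TMM without these 82 genes, no filter, the compared groups alone, an animal block and each replicate left out.

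Replicate numbers are animals, so they pair libraries: over all genes tested, deviations from group means correlated at a median of 0.121 within an animal (45 pairs) and -0.063 between animals (90 pairs). Over the 40S and 60S genes these medians were 0.230 and -0.105. Deviations cancel within a group, so the medians between animals follow largely from those within an animal and are no separate sign of pairing.

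The genes named with values were taken by a rule: up to 4 largest increases and decreases per comparison among called genes with the same sign in 3 animals, the 5 highest and lowest by TPM, and 20 genes of known role. Members and lists were chosen with earlier results of these data known, and other genes named were chosen after their values were seen. Sequences come from RefSeq on GRCm38.p6. Some single genes that the rule for naming would give are not reported here; they remain in the counts.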

Additional observations from a re-analysis of the deposited data

Results flagged for a closer look

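The difference between DFMO effects in a pair of lineages passed the interaction test of edgeR for some ribosomal protein genes. Between iTreg and Th17n cells 60 of 82 genes had the higher log2 fold change with DFMO in iTreg cells, where 6.66% of all genes did. The difference is signed, so a gene that fell less in iTreg cells, such as Rpl22l1, counts here too. The largest called differences with the same sign in 3 animals were Rpl12 (1.07), Rpl22l1 (0.90), Rps27 (0.79) and Rps7 (0.69) on the log2 scale, and each of the 4 calls was lost in at least 1 of the fits without an animal. Between Th17n and Th17p cells 5 genes differed: Rpl7l1 (0.52), Rpl13a (-0.40), Rpl9 (-0.37), Rpsa (-0.36) and Rpl3 (-0.35), where 2.63% of all genes were higher and 2.35% lower. Each of these 5 calls was lost whichever animal was left out. Between iTreg and Th17p cells 2 of 82 genes differed, among them Rpl10 (1.65), a smaller share than the 3.52% of all genes that were higher. Rpl10 held 5922 estimated counts against 462377 in the row Rpl10-ps3, so its value is uncertain. The Rpl10 call was lost without animal 1 or 2, without scaling factors, without the filter, with the compared groups alone and on TPM. These comparisons share the DFMO and vehicle libraries of a lineage, so they are not independent.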

How the results depend on the processing

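The direction of the median over the 82 genes in the iTreg comparison with DFMO and the DFMO calls of Rpl22l1 and Rpl7l1 held under each alternative that was run. Of the counts of called genes, 146 alternative values lay within 1.5 times the reported one and 70 did not. For single named genes 929 alternative values kept their side of the threshold, 130 lost a call, 39 gained one and 30 turned sign.

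With limma on TPM the counts were 54 higher and 2 lower (Th17p with DFMO), 19 higher (Th17n with DFMO), 3 higher and 24 lower (iTreg against Th17n), 3 higher at a pseudocount of 1 and 2 at 0.1 (iTreg against Th17p), 18 and 16 lower (DFMO effect in Th17n minus Th17p), 2 lower (iTreg minus Th17n), and 1 higher and 1 lower (iTreg minus Th17p). Without scaling factors they were 13 higher (Th17n against Th17p), 2 higher and 15 lower (iTreg against Th17n), 1 higher and 0 lower (iTreg against Th17p), 2 lower (iTreg minus Th17n) and 0 higher (iTreg minus Th17p). DESeq2 gave 2 lower in Th17p, 2 higher and 7 lower for Th17n minus Th17p, and 8 higher for iTreg minus Th17p. No filter gave 1 lower (iTreg against Th17p), 9 lower (Th17n minus Th17p) and 1 higher (iTreg minus Th17p), TMM without these genes 1 lower (iTreg against Th17p), and the compared groups alone 1 lower there and 0 higher for iTreg minus Th17p. Without the Th17p vehicle library of animal 3, an alternative chosen after seeing the data, the counts were 13 higher and 3 lower (Th17p), 6 higher (Th17n against Th17p), 46 lower (iTreg against Th17n), 0 higher and 1 lower (Th17n minus Th17p), 68 higher (iTreg minus Th17n) and 8 higher (iTreg minus Th17p).

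With the replicate block, which pairs libraries of 1 animal, 49 genes were higher in Th17n than in Th17p vehicle cells, 13 lower for Th17n minus Th17p and 21 higher for iTreg minus Th17p. The pairing moved the count of calls by less than 1.5 times in the other comparisons. Among named genes it ended the call of Rpl12 for iTreg minus Th17n (adjusted p = 0.0591) and gained those of Rps19 in Th17p (0.0235) and of Rpl36al (0.0154), Rpl39 (0.023) and Rplp2 (0.0435) in Th17n cells with DFMO.

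Without replicate 1, 2 or 3 in turn, the counts ran from 7 to 28 higher and 1 to 2 lower (Th17p), 3 to 6 higher and 3 to 18 lower (Th17n), 1 to 10 higher and 1 to 2 lower (Th17n against Th17p), 14 to 44 lower (iTreg against Th17n), 0 to 2 lower (iTreg against Th17p), 0 higher and 0 to 1 lower (Th17n minus Th17p), 2 to 64 higher (iTreg minus Th17n) and 0 to 2 higher (iTreg minus Th17p). The share of counts in iTreg cells rose by 2.36 to 3.40 percentage points. On listed TPM the share differed by 3.09 (Th17p with DFMO), 4.04 (iTreg with DFMO), 3.28 (Th17n against Th17p) and -2.02 (iTreg against Th17n) points. The 60S to 40S ratio differed by -0.117 and -0.114 without Rps2, and by -0.122 and -0.116 with -ps rows added too, in Th17p and iTreg cells, choices made after seeing the data.

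Signs turned for small differences. In Th17p cells Rps6 had -0.016 in DESeq2, -0.028 without scaling, -0.0012 with the compared groups alone, -0.055 without the vehicle library of animal 3 and -0.035 to 0.090 with an animal left out. Rps28 had -0.016 and Rpl39 -0.035 without that library, and -0.067 to 0.239 and -0.0061 to 0.223 with an animal left out. In Th17n cells both TPM fits gave 0.054 (Rps19), 0.067 (Rpl22), 0.062 (Rpl38), 0.019 (Rpl41) and 0.072 (Rplp1). With an animal left out they ran from -0.117 to 0.070 (Rps19), -0.110 to 0.115 (Rpl22), -0.123 to 0.046 (Rpl38), -0.162 to 0.014 (Rpl41), -0.100 to 0.082 (Rplp1) and -0.015 to 0.273 (Rps28). Rpl36al in iTreg cells had -0.015 without scaling and -0.080 on TPM. The cause of these changes was not tested. Depth limits weakly counted genes such as Rps29 and Rpl10, the lowest count of a gene in a library being 62.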
